A study of Mus musculus with 2 samples.

Results

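CD numbers are given to cell-surface molecules recognised by clusters of monoclonal antibodies, and many mouse genes carry that number as their symbol. The genes described here are those whose platform symbol is Cd followed by digits, at most 1 further letter and at most 1 further digit, and which have a probe set of their own on the array. Cd14, Cd74 and Cd177 were left out. This gave 78 of 18194 measured genes, read by 141 probe sets. The pattern takes in a few relatives and receptors of CD antigens (Cd163l1, Cd200r1, Cd200r3, Cd200r4) and Cd5l, which encodes a secreted protein of macrophages, so not all 78 are surface antigens in the strict sense.

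The samples were bone marrow neutrophils of C57BL/6 mice, an inbred strain, and the labels name no treatment or mutation. Live cells (DAPI-negative) with high Gr-1 staining and no CD48 staining were collected by flow cytometry in 2 independent experiments, after antibody block of the Fc receptors CD16 and CD32. Each experiment gave 1 array, called replicate 1 and replicate 2 after their titles, and the labels do not say whether animals were pooled. There is 1 group with 2 arrays, so no difference below has a replicate check or a p-value, and the number of arrays limits the precision.

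CD antigens have many roles on blood cells. Tetraspanins organise other membrane proteins, proteins held by a GPI lipid anchor include shields against complement, and paired inhibitory and activating receptors tune how myeloid cells respond. Others are used to define lymphocytes, such as the CD3 chains of the T cell receptor and the CD79 chains of the B cell receptor.

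Values are MAS5 signals as deposited by the authors, a linear intensity per probe set, and both arrays had the same trimmed mean. A gene was called above background when 1 of its probe sets exceeded, on both arrays, the 95th percentile of 87 probe sets of olfactory and other sensory receptor genes, which was 108 on replicate 1 and 131 on replicate 2. Levels are from the brightest probe set of a gene, and levels of different genes were not compared, since probe sets bind their targets with different strength. Over all genes, 7354 of 18194 (40.4%) were above background. So were 6 of 35 measured genes listed as typical of other organs (17.1%). Among these 6 were Tff1 (654 and 595 on replicates 1 and 2) and Myl2 (598 and 410). A call above background, above all one near it, is therefore not by itself proof of expression. The neutrophil label matched its markers, with 9 of 9 measured marker genes above background, among them Ltf (18878 and 33399 on replicates 1 and 2) and Camp (26404 and 39049).

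Of the 78 CD genes, 30 (38.5%) were above background on both arrays, against 40.4% of all genes, so the set as a whole was detected about as often as any gene. A further 4 were above it on replicate 1 only, 2 on replicate 2 only and 42 on neither. The calls differed widely between roles. All 6 tetraspanins, 5 of 6 GPI-anchored or complement-regulating antigens, 6 of 9 adhesion and uptake antigens and 5 of 7 signalling receptors were above background. In the lymphocyte groups 1 of 15 T and NK cell antigens and 0 of 3 B cell antigens were. Taken singly, replicate 1 had 34 CD genes above background (43.6%, against 46.3% of all genes) and replicate 2 had 32 (41.0%, against 44.2%).

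**Figure D1:**
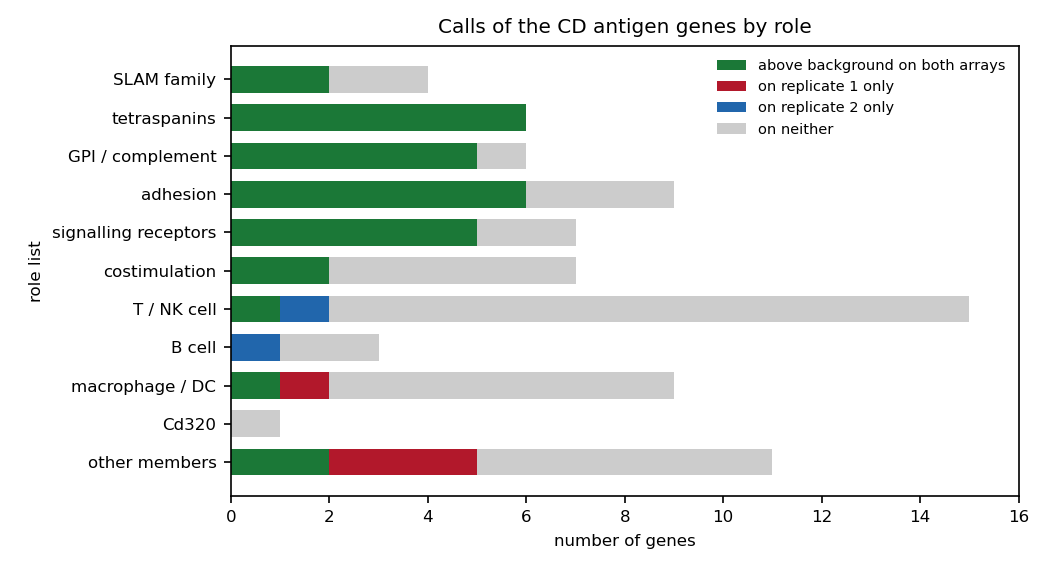
Number of CD genes (horizontal axis) above background on both arrays, on 1 array only or on neither, for each role list (vertical axis). All 6 tetraspanins are above background, while 13 of 15 T and NK cell antigens are above it on neither array.

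The sort antigen and its relatives of the SLAM family, immune receptors that mostly bind one another, split into 2 genes above background and 2 below. Cd48, whose GPI-anchored product was the antigen the cells were sorted to lack, had signals of 3.31 on replicate 1 and 41.2 on replicate 2, below background on both. The gate chose cells without the protein, so this low signal describes the selection and is no separate finding. Cd2, which encodes a ligand of CD48 on lymphocytes, had 5.36 and 31.5 and was also below background. Cd244a, which encodes the CD48 receptor 2B4, had 409 on replicate 1 and 165 on replicate 2, and its second probe set had 324 and 145. Cd84, a SLAM receptor that binds itself, had 6564 and 3267 on replicates 1 and 2, and 1346 and 525 on its second probe set. Both receptors were above background on every probe set, and both were higher on replicate 1. Cd244a lay near background, and was not above it when the 99th percentile of the sensory receptors was taken.

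Cd244a, Cd48 and Cd84 lie close together on chromosome 1, with no more than 5 other protein-coding genes between one and the next. The 250 bases before their annotated starts are shown because these neighbours had different calls on the arrays, and those of Cd68 and Cd81 because these genes also differed over 2-fold between the arrays. The sequences are from RefSeq (GRCm38.p6), each 5′ to 3′ on the strand of its gene. Cd48 is at chr1:171681742-171681991, Cd244a at chr1:171558943-171559192, Cd84 at chr1:171839447-171839696 and Cd81 at chr7:143052500-143052749, all on the plus strand, and Cd68 is at chr11:69666171-69666420 on the minus strand. Capitals mark matches, on either strand, to GAGGAA (a core of sites for PU.1, the myeloid transcription factor), TTGCNNAA (a form of the site for C/EBP factors) and TATAAA (the TATA box).
Cd48: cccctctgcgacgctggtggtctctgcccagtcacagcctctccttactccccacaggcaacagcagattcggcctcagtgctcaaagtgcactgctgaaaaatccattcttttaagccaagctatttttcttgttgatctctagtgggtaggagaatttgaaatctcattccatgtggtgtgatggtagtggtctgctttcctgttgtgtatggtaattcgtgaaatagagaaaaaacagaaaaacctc
Cd244a: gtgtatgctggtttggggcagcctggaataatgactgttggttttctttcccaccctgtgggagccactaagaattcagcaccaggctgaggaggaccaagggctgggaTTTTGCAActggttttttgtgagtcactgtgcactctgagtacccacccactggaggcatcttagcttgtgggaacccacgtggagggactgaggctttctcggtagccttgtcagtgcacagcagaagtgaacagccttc
Cd84: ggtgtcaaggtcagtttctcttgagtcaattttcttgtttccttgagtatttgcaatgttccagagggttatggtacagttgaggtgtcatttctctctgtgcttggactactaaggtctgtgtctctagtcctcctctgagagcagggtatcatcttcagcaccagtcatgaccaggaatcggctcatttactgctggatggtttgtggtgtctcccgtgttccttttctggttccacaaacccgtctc
Cd68: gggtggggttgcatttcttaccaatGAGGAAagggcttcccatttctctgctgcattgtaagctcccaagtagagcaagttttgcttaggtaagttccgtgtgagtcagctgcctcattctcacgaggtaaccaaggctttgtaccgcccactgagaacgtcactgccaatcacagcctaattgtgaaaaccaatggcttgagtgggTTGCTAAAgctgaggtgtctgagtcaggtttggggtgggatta
Cd81: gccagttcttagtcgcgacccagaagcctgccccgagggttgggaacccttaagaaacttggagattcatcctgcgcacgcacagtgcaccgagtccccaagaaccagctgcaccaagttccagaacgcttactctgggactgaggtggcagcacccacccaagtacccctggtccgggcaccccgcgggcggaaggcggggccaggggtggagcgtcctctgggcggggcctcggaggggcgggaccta
The window of Cd244a held 1 match to TTGCNNAA, that of Cd68 held 1 to GAGGAA and 1 to TTGCNNAA, and those of Cd48, Cd84 and Cd81 held none of the 3. Among 32851 windows of the same length, 23.3% held GAGGAA, 9.56% TTGCNNAA and 12.4% TATAAA. The motif GAGGAA was in 11 of 28 windows of the CD genes above background (22 genes with a window) and in 12 of 36 windows of those not above it (34 genes). TTGCNNAA was in 6 of 28 and 7 of 36, and TATAAA in 0 of 28 and 5 of 36. These are matches of letters, not measured binding.

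All 6 measured tetraspanins, proteins that cross the membrane several times and gather partners into microdomains, were above background on both arrays. Cd53, a tetraspanin of leukocytes, had signals of 11923 on replicate 1 and 11467 on replicate 2, a log2 level of 13.51 ± 0.04 (SD, n = 2). Cd9, found on platelets and many leukocytes, had 5924 and 5958 (12.54 ± 0.01, SD, n = 2). These 2 genes were nearly equal on the arrays. Cd82 had 2850.0 and 1956, Cd37, a leukocyte tetraspanin, 1519 and 1234, and Cd151, a partner of laminin-binding integrins, 486 and 403. All 3 were somewhat higher on replicate 1. For Cd151 the direction rested on probe sets that can bind several transcripts, since its difference was -0.22 without them. Cd81, part of the B cell coreceptor and expressed in many cell types, went the other way, with 766 on replicate 1 and 1690.3 on replicate 2. Cd63, the tetraspanin of granule membranes, was not analysed here.

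Of the antigens with a GPI anchor or a role against complement, 5 of 6 were above background. Cd24a, the heat-stable antigen carried by immature and mature neutrophils, had signals of 26234 on replicate 1 and 32985 on replicate 2 (14.84 ± 0.23 log2, SD, n = 2), and its 3 probe sets were all above background. Cd52, a short glycopeptide on a GPI anchor, had 25136 and 27818 (14.69 ± 0.10, SD, n = 2). Both genes were within 1.26-fold between the arrays. Cd55, which encodes decay-accelerating factor, an inhibitor of the complement convertases, had 1016 and 1236, while its other probe sets had 496 and 452, and 619 and 606. The direction for Cd55 therefore differed between its probe sets. Cd59a, which blocks the membrane attack complex, had 171 on replicate 1 and 221 on replicate 2, and Cd46, a complement cofactor that in mice is known mainly from testis, had 166 and 140.2. These 2 genes were close above background. Cd109, another GPI-anchored protein, had 19.6 and 8.13 and was not above it, and Cd59b was not analysed here.

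Among antigens of adhesion and uptake, 6 of 9 were above background. Cd44, the hyaluronan receptor, had signals of 14465 on replicate 1 and 12905.0 on replicate 2 (13.74 ± 0.12 log2, SD, n = 2). Of its 4 probe sets 3 were above background, and the fourth had 0.791 and 5.35. Cd47, which signals to phagocytes through SIRP alpha that a cell should be spared, had 5106 and 6426 (12.48 ± 0.23, SD, n = 2), with 4 of 5 probe sets above background. Cd164, a sialomucin that also resides in endosomes, had 9634 and 9618, the same level on both arrays. Cd68, a heavily glycosylated protein of lysosomes and a common macrophage marker, had 926 on replicate 1 and 452 on replicate 2. Cd93, a C-type lectin-like receptor of endothelium and myeloid cells, had 234 and 248 through 1 of 5 probe sets, and Cd99, an adhesion molecule of leukocyte migration, 176 and 177 through 1 of 3. Cd36, the scavenger receptor for oxidised lipids, had 40.5 and 13.9. Cd34, the progenitor and endothelial sialomucin, had 3.01 and 8.29, and Cd248, an antigen of stroma, 22.1 and 28.8. These last 3 were above background on neither array.

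The signalling receptors were above background in 5 of 7 genes. Cd33, a sialic acid-binding Siglec, had signals of 4281 on replicate 1 and 2825 on replicate 2 (11.76 ± 0.42 log2, SD, n = 2). Cd300a, an inhibitory receptor for phospholipids of dying cells, had 2148 and 1188, and its family neighbour Cd300c2 had 782 and 447. Each of these 3 genes was higher on replicate 1, by 1.52-fold to 1.81-fold. Cd69, an early activation antigen of leukocytes, had 227 and 189, and Cd180, a Toll-like protein of B cells and myeloid cells, 157 and 161. Cd72 (9.05 and 54.3), a B cell coreceptor, and Cd200 (34.9 and 10.05), the ligand of the Cd200r1 product, were above background on neither array. Cd101 and Cd38 were not analysed here.

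The CD200 receptors form their own family on chromosome 16 beside Cd200. Cd200r1, the inhibitory receptor for CD200, had 519 on replicate 1 and 518 on replicate 2, with 306 and 413 on its second probe set. Cd200r4, an activating relative, had 415 and 228, while Cd200r3 had 18.2 and 12.9 and was not above background. So 2 of the 3 receptor genes were above background and Cd200 was not.

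Of the costimulation and checkpoint molecules 2 of 7 were above background, both close to it. Cd80 had signals of 273 on replicate 1 and 213 on replicate 2, and Cd86 had 217 and 159. They encode the B7 ligands that costimulate T cells through CD28. Both calls were lost at the 99th percentile of the sensory receptors, where 0 of the 7 remained above background. Cd274, which encodes PD-L1, had 88.8 and 65.7, Cd40, the receptor of CD40 ligand, 68.8 and 104, and Cd83, a marker of mature dendritic cells, 43.9 and 85.3. Cd70 and Cd276 did not exceed 11.3 on either array.

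**Figure D2:**
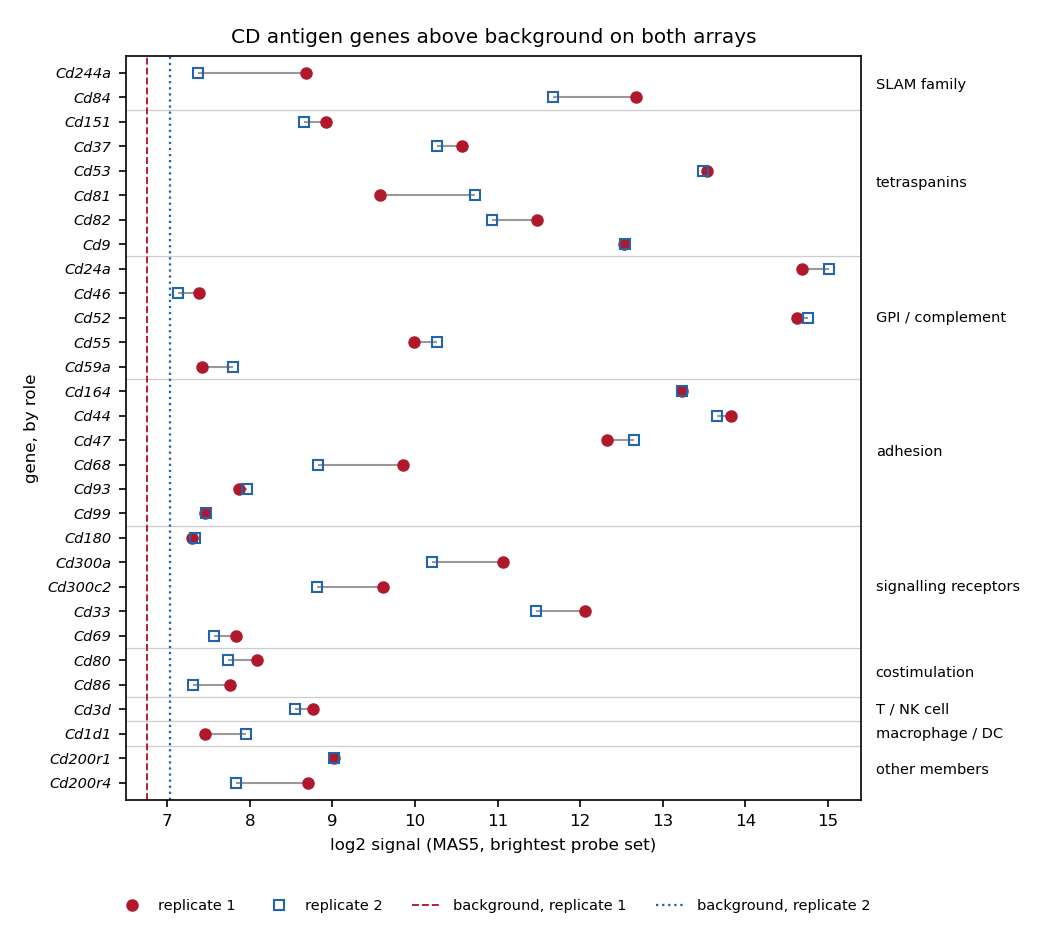
Log2 signal of the 30 CD genes above background on both arrays (horizontal axis), grouped by role (vertical axis); filled circles are replicate 1, open squares replicate 2, and vertical lines the background of each array. Cd53, Cd9 and Cd164 have nearly the same value on both arrays, and Cd244a, Cd84, Cd68 and Cd81 are over 2-fold apart.

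Antigens of T and NK cells were above background in 1 of 15 genes. That gene was Cd3d, a chain of the CD3 signalling complex, with signals of 433 on replicate 1 and 374 on replicate 2 on its only probe set. The other CD3 chains did not share the call, with 15.0 and 7.92 for Cd3e and 35.4 and 80.7 for Cd3g, and Cd247, the zeta chain, had 65.1 and 31.5. Cd8a had 99.9 and 135 and was above background on replicate 2 only, while Cd8b1 had 25.3 and 18.7 and Cd4 15.5 and 19.4. The remaining antigens, Cd5, Cd6, Cd7, Cd27, Cd28, Cd96, Cd160 and Cd226, were above background on neither array. Among T cell markers without a CD number 1 of 5 was above background, with a summed signal of 911 on replicate 1 and 596 on replicate 2. That marker was Zap70 (700 and 330), a kinase of the T cell receptor, and Thy1 had 31.3 and 41.5. None of the 6 measured NK cell markers was above background on both arrays. What part other cells have in the Cd3d signal was not tested.

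No B cell antigen was above background on both arrays. Cd22, an inhibitory Siglec of B cells, had signals of 71.3 on replicate 1 and 137 on replicate 2, just above background on replicate 2 only. Cd79a and Cd79b, the signalling chains of the B cell receptor, had 17.6 and 111, and 12.8 and 76.4. All 3 were higher on replicate 2, with Cd79a and Cd79b below background on both arrays. Of 10 other B cell markers, 1 was above background on both arrays (Igll1, 173 and 167). Ms4a1 (72.6 and 158), the antigen CD20, and Pax5 (88.8 and 174), a transcription factor of B cells, were above it on replicate 2 only. Vpreb1, a surrogate light chain gene of early B cells, had 29.3 and 74.75. Blnk (28.7 and 33.0) and Blk (68.4 and 83.9) were also higher on replicate 2. Higher on replicate 1 were Vpreb3 (173 and 19.8), Fcer2a (101 and 31.1), Cr2 (111 and 80.5), Ebf1 (35.0 and 31.9) and, slightly, Igll1. Of these, Vpreb3 and Cr2 were above background on replicate 1 only. The list therefore had no common direction. The 10 markers summed to 881 on replicate 1 and 854 on replicate 2, and without Vpreb3 to 707.5 and 835. What part B cells have in these signals was not tested.

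Antigens of macrophages and dendritic cells were above background in 1 of 9 genes. Cd1d1, which presents lipids to NKT cells, had 177 on replicate 1 and 247 on replicate 2 on a probe set that can bind several transcripts, and 99.1 and 117 on its other one. Its near copy Cd1d2 had 4.42 and 14.9, and with the shared probe set left out no gene of this group was above background. Cd163, the haemoglobin scavenger receptor of macrophages, had 121 and 82.5, above background on replicate 1 only. Cd5l had 204 and 107, Cd302 112 and 88.6, and Cd209f 109 and 98.4, each also above it on replicate 1 only. The other 6 lectins of the Cd209 cluster (Cd209a, Cd209b, Cd209c, Cd209d, Cd209e and Cd209g), relatives of human DC-SIGN, and Cd207, the Langerin of Langerhans cells, were above it on neither array. The same held for Cd163l1, Cd164l2, Cd55b and Cd99l2, and for Cd320, the transcobalamin receptor (8.72 and 82.2). Over all 42 genes above background on neither array, signals had a median of 19.0 (replicate 1) and 27.1 (replicate 2), against 25.6 and 27.3 for the sensory receptor probe sets. The 42 genes were picked as not above background and read on their brightest probe set. The sensory probe sets were taken without such a choice, so the medians are not strictly comparable.

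**Figure D3:**
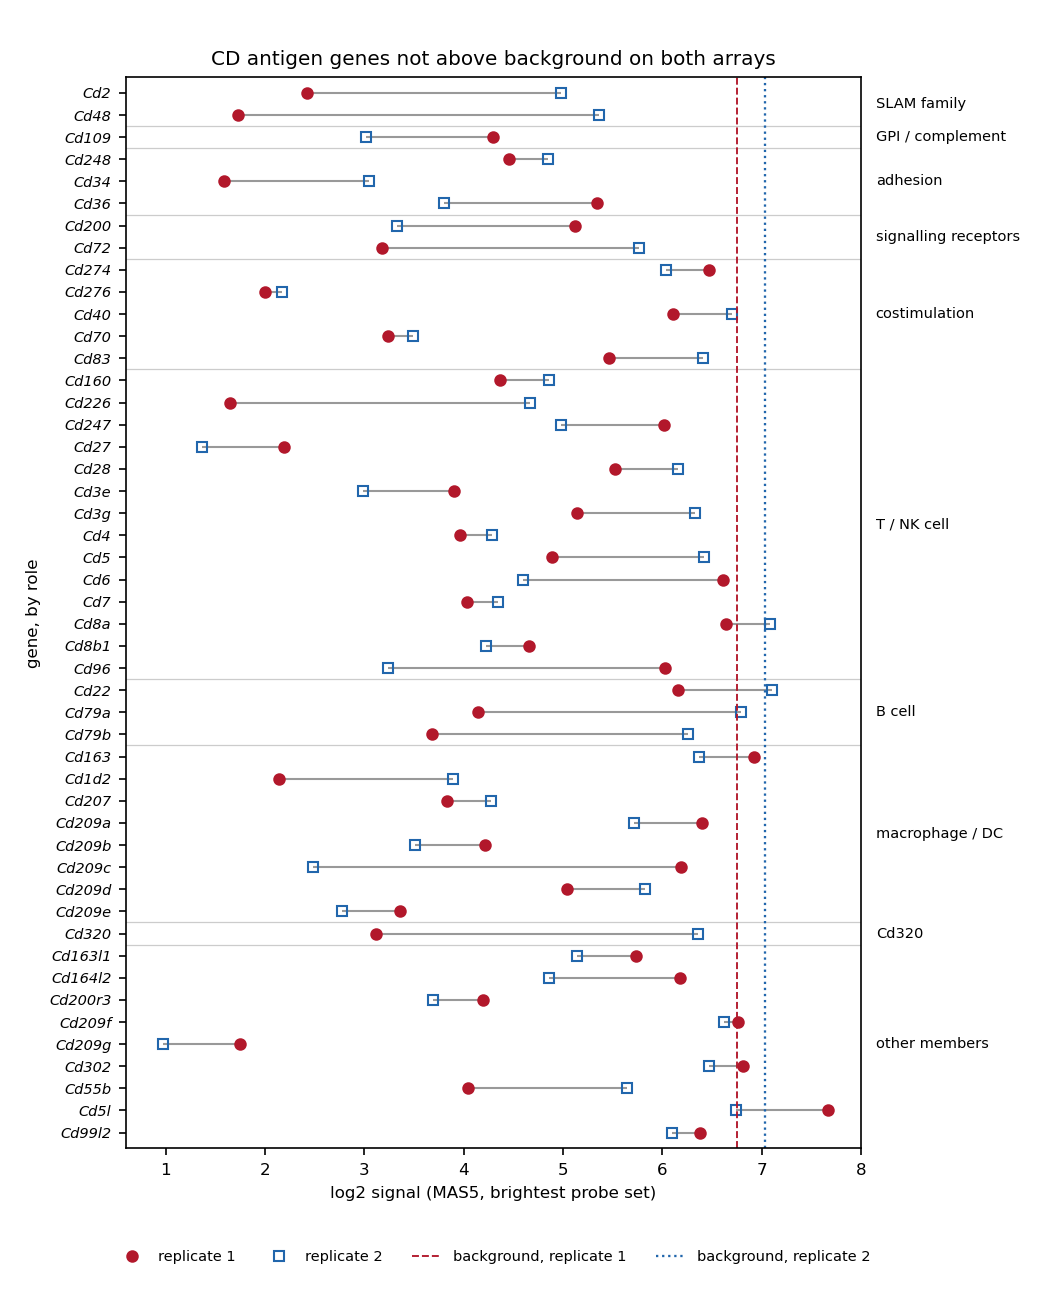
Log2 signal of the 48 CD genes not above background on both arrays (horizontal axis), by role (vertical axis); filled circles are replicate 1, open squares replicate 2, and vertical lines the background of each array. Cd8a and Cd22 pass the line of replicate 2 only, and Cd163, Cd302, Cd209f and Cd5l that of replicate 1 only.

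Between the arrays, the 30 CD genes above background differed by a median log2 of 0.19 (replicate 1 minus replicate 2), against -0.07 for the 7354 genes above background, and 19 of 30 were higher on replicate 1 (43.7% of all genes were). With median scaling 23 of 30 were, against 55.5% of all genes, and with quantile normalization 23, against 45.3%. The SD of a gene over the 2 arrays had a median of 0.22 on the log2 scale, against 0.21 over all genes, and was under 0.2 for 14 of the 30. Cd244a, Cd84 and Cd68 were over 2-fold higher on replicate 1 (3 of 30, against 1.97% of all genes above background). Cd81 was over 2-fold higher on replicate 2 (1 of 30, against 3.43%). Cd244a was 2.48-fold and Cd81 2.21-fold apart. Cd84 at 2.01-fold and Cd68 at 2.05-fold lay at the 2-fold line, and Cd200r4 (1.82-fold) and Cd300a (1.81-fold) came next below it.

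**Figure D4:**
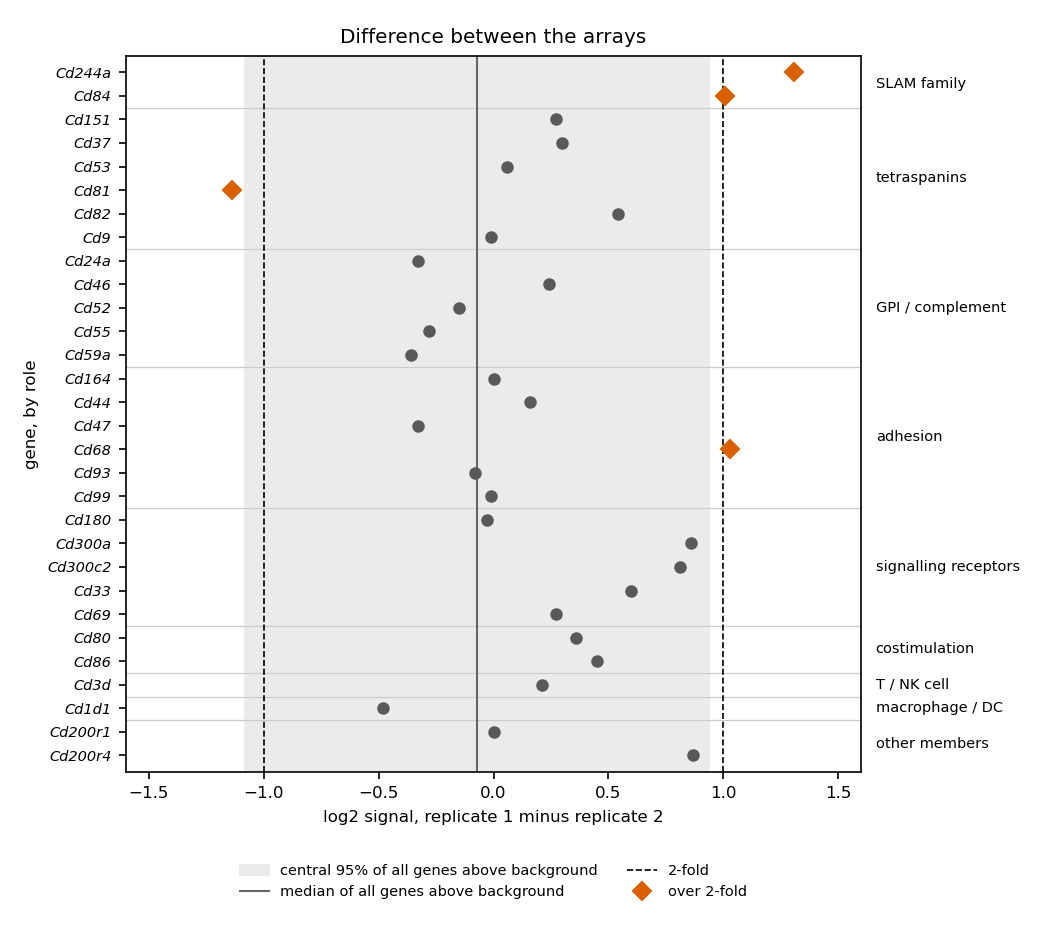
Log2 signal of replicate 1 minus replicate 2 (horizontal axis) for the 30 CD genes above background, by role (vertical axis); diamonds are over 2-fold, the band is the central 95% of all genes above background and the line their median. Cd244a, Cd84 and Cd68 lie right of the band and Cd81 left of it.

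By role, the 5 signalling receptors above background had a median difference of 0.60, with 4 higher on replicate 1. The 5 GPI-anchored or complement-regulating antigens had a median of -0.28, with 4 lower on replicate 1. Relative to the median of all genes theirs was -0.21 as deposited, and it flipped to 0.10 with quantile normalization. Median scaling and scaling to the hybridisation controls change all signals of an array by the same factor, so they cannot move such relative values. Scaling to those controls moved the median of all genes to 0.66 and that of the CD genes to 0.91, with 11 of 30 CD genes over 2-fold higher on replicate 1 (21.5% of all genes were) and 0 over 2-fold higher on replicate 2 (0.449% of all genes were). Relative to all genes the CD genes were higher on replicate 1 by 0.26 as deposited and by 0.30 with quantile normalization. The value was 0.13 with background at the 99th percentile of the sensory receptors, and 0.18 with genes of other organs as background. Cd81 was lower on replicate 1 under every scaling named above, and Cd244a, Cd84 and Cd68 were higher.

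Markers of neutrophils and of other cells also differed between the arrays. Neutrophil markers summed to 233465 on replicate 1 and 342122 on replicate 2, and 8 of 9 were lower on replicate 1 (median -0.56, log2). Csf3r, the G-CSF receptor, was the exception (7951 and 4670.2). Monocyte markers, 3 of 6 above background, had a summed signal of 5603 on replicate 1 and 2565 on replicate 2, most of it from Csf1r (5020.3 and 1928), the receptor of M-CSF. Without Csf1r they summed to 582 on replicate 1 and 637 on replicate 2. The other monocyte markers above background went opposite ways. Ccr2, the chemokine receptor of inflammatory monocytes, had 157 and 220 (log2 difference -0.49), and F13a1 had 264 and 231 (0.19). Macrophage markers, 3 of 9 above background, summed to 1284 and 819. Those above it were Adgre1 (627 and 217), C1qb (256 and 163.5) and Vcam1 (260.0 and 255), all 3 higher on replicate 1, Vcam1 only slightly. C1qc, not above background, had 4.81 and 8.75. Proliferation markers, 5 of 9 above background, summed to 1102 on replicate 1 and 7696 on replicate 2, and stem and progenitor markers, 2 of 8, to 1032 and 2118. None of these markers was listed at 0, but neither were genes of other organs such as Scgb1a1 (7.76 on replicate 1 and 8.67 on replicate 2). A signal over 0 is therefore no sign that a cell type was present. The part of these markers in the differences of Cd84, Cd244a, Cd68 or Cd81 was not tested. Fewer cells of a type cannot be told apart from less RNA per cell in these samples.

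Many CD antigens carry another gene symbol, and 50 such genes of blood cells were read as a companion list. This list was chosen with neutrophil antigens in mind, so its share above background, 39 of 50 (78.0%, against 40.4% of all genes), describes that choice. It included Ptprc, the phosphatase CD45 (21712 on replicate 1 and 20404 on replicate 2), Spn, the sialomucin CD43 (1234 and 1401), and the integrin chains Itgam (6822 and 6868), Itgb2 (15098 and 15549), Itgal (3424 and 2254) and Itga4 (446 and 388). Selplg, the selectin ligand CD162, had 5408 and 2747, and Fcgr3, a CD16 Fc receptor, 11417 and 8317. Over 2-fold higher on replicate 1 were Cxcr2 (7212 and 3224), Csf1r and Tlr2 (1769 and 763), receptors for chemokines, M-CSF and bacterial lipoproteins. Over 2-fold higher on replicate 2 were Kit, the stem cell factor receptor (244 and 546), and Ncam1, the adhesion molecule CD56 (226 and 582). The list's median difference was 0.43, against -0.07 for all genes above background, with 24 of 39 genes higher on replicate 1 (43.7% of all genes were). Of the 39 genes, 3 were over 2-fold higher on replicate 1 (1.97% of all genes were) and 2 on replicate 2 (3.43%).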

How the data were processed

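Total RNA of the sorted cells was labelled with a 3' IVT kit and hybridised to Affymetrix arrays, 1 per experiment, per the labels' protocols. The authors deposited MAS5 signals, a linear intensity, for 45101 probe sets, per the submitters' processing notes. No label names a MAS5 version or its settings. The trimmed mean (2% at each end) was 250.0 on both arrays, so differences are relative to that shared level.

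GEO's platform annotation gave 1 gene to 34958 probe sets, several to 932 and none to 9211. All 78 CD genes had their gene identifier in the RefSeq table. Signals were floored at 1 before log2 (Python 3.11.15, pandas 2.3.3). The 2-fold comparison was tested on simulated data, with planted differences larger than those of Cd244a, Cd84, Cd68 and Cd81. Detection was not tested in this way. Intervals were not computed, as n = 2.

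The members, lists and rules were chosen with earlier results of these data known. Every CD gene is named, with values for those above background on either array and for Cd48, Cd3e and Cd34. Other values given were chosen after they were seen. Of the companion list the first 8 genes and those over 2-fold apart are named. Alternatives changed the background, the scaling, the filter, the pseudocount and the probe sets.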

Additional observations from a re-analysis of the deposited data

How the results depend on the processing

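The count of 30 CD genes above background (38.5%, against 40.4% of all genes) became 33 at the 90th percentile of the sensory receptors (42.3%, against 45.4%) and 23 at the 99th (29.5%, against 32.7%). It became 28 without probe sets ending in _x_at or _s_at (35.9%, against 38.9%) and 19 with the genes of other organs as background (24.4%, against 25.7%). On 1 array alone it was 32 to 34. The 19 genes were above background under each of the 6 detection settings; Cd180, Cd1d1, Cd200r4, Cd244a, Cd46, Cd59a, Cd69, Cd80, Cd86, Cd93 and Cd99 were lost under at least 1. Of the 50 companion genes, 35 were above background with the genes of other organs as background (25.7% of all genes). On replicate 1 alone 41 were (46.3% of all genes), and the other settings lay between. The 4 genes over 2-fold apart (13.3%, against 5.4% of all genes) became 11 with scaling to the hybridisation controls (36.7%, against 21.9%, median difference 0.91), 2 with 32 added to the signal (6.67%, against 3.92%) and 24 with no filter on background (30.8%, against 27.1%). Cd84 passed 2-fold as deposited but not with quantile normalization (0.93) or with 32 added (1.00), Cd68 not with 32 added (0.98), and Cd81 not with the hybridisation controls (-0.42). The cause was not tested. The median difference stayed above 0 under each setting run, between 0.06 and 0.91. No paired analysis was possible because there is 1 group. Signal over background limits the calls: 5 of the 30 genes were under 2 times the background on both arrays, and 10 were at least 10 times above it.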

Other observations

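Where a CD gene had several probe sets, these did not always agree. Of 35 such genes, 16 had no probe set above background, 7 had all above it and 12 had some, and 8 were above background through 1 probe set alone. Of 11 genes with 2 or more probe sets above background, 5 had probe sets that differed in sign between the arrays. These counts by gene were not made over all genes, so they cannot be called particular to CD genes. In Cd37, Cd80 and Cd200r1 a probe set had a difference near 0 (-0.02, -0.01 and 0.0, log2). The sign of such small differences therefore depends on the probe set read. By probe set, 48 of 141 (34.0%) were above background, against 35.5% of all probe sets with 1 gene.

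CD genes also lie in clusters. With at most 5 protein-coding genes between neighbours, 31 of the 77 genes that could be placed fell in 11 clusters. In 7 clusters some members were above background and others not, in 1 (Cd300a and Cd300c2) all were, and in 3 none was, among them the 7 lectin genes of the Cd209 cluster. Clusters of other genes were not counted, so this has no background share either. In the CD3 cluster Cd3d alone was above background, and Cd9 was above it beside Cd27, which had signals of 4.57 on replicate 1 and 2.58 on replicate 2. Probe sets assigned to Cd55b together with another gene had signals of at most 16.4 on replicate 1 and 4.67 on replicate 2.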
